A study of Mus musculus with 4 samples.

Results

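The genes described here encode the nuclear subunits of oxidative phosphorylation, the chain of enzyme complexes I to V of the mitochondrial inner membrane. They were chosen by symbol alone: names beginning with Nduf and a, b, c, s or v and a digit (complex I), Sdha to Sdhd (II), Uqcr (III), Cox4 to Cox8 (IV) or Atp5 (V), on a probe set annotated to that gene only. These were 81 of the 19938 named genes on the arrays, measured by 105 probe sets, and each gene is given by its brightest probe set over the 4 arrays. They fell into 35 genes of complex I, 4 of complex II, 8 of complex III, 17 of complex IV and 17 of complex V. Another 6 probe sets carried several symbols and were left out, which leaves Cox7c and Ndufb4 without a value. Ndufb1 was not analysed here.

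Each array held RNA from KLS cells, the marrow fraction that is Lin- c-Kit+ and Sca-1+ and is enriched for blood stem cells and multipotent progenitors. The cells came from mice on a C57Bl/6 background that had been made chimeric with fetal liver cells, so that their marrow mixed Klf7+/+ with Klf7-/- cells. In all, 2 arrays were labelled Klf7-/- (knockout) and 2 Klf7+/+ (wild type), and both groups share the chimeric setting. Klf7 encodes a Kruppel-like zinc finger transcription factor that binds GC-rich and CACCC-type DNA. The age of the animals, how many mice or embryos stand behind an array and which part of Klf7 was deleted are not given in the sources used here. The p-values therefore set differences against the variation among these 4 samples alone, and that variation can be technical.

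As background, complex I takes electrons from NADH and complex II from succinate, both pass them through ubiquinone to complex III, and cytochrome c carries them on to complex IV, which reduces oxygen. Complexes I, III and IV pump protons, and complex V, the ATP synthase, uses their return to make ATP. All but complex II combine nuclear subunits with subunits encoded in mitochondrial DNA. Quiescent hematopoietic stem cells are known for low use of this pathway and for turning to it when they divide and differentiate. In bulk samples, fewer cells of a type and less RNA per cell cannot be told apart.

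Over the whole table of 28939 probe sets, limma called 1 probe set at an adjusted p under 0.05, which is 0.00346% of those tested. It belonged to Xist, the noncoding RNA that silences an X chromosome in female cells, at 11.76 and 11.58 on the log2 scale in knockout and 5.24 and 4.80 in wild type. Sex-linked expression therefore divided the 4 arrays as genotype did, and these cannot be told apart. Klf7 itself read 6.59 and 6.18 in knockout against 5.95 and 6.10 in wild type, a difference of 0.36 ± 0.21 (moderated standard error, SE, n = 2 per group). The knockout arrays were thus higher without overlap, and the difference ran from 0.16 to 0.57 with single arrays left out. Its limma adjusted p was 0.950. Whether this probe set reads the deleted part of Klf7 is not known, so the labels could not be checked with it. Among gate and stem cell genes the knockout arrays read higher without overlap for Kit, the c-Kit receptor, at 10.12 and 9.92 against 9.55 and 9.71, and for the sialomucin gene Cd34 at 10.24 and 10.22 against 9.65 and 9.57. Hlf and Flt3 were also higher without overlap, by 0.40 ± 0.22 and 0.48 ± 0.19. Slamf1 was higher without overlap by 0.079 ± 0.15, which is under its own SE. Procr overlapped, and the stem cell transcription factor gene Mecom was lower without overlap, at 6.25 and 6.13 against 7.20 and 6.59. The Sca-1 gene Ly6a was not analysed here.

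No subunit gene passed the test. Limma called 0 of the 81 in either direction, and their smallest adjusted p was 0.945. At an unadjusted p under 0.05 there were 4, Ndufs1, Cox5a and Atp5e higher and Ndufs4 lower in knockout, read against 4.81% of all named genes. The knockout and wild-type arrays did not overlap for 28 of the 81, 12 higher and 16 lower in knockout, or 34.6% of them. Over all named genes the arrays did not overlap for 33.2%, with 14.5% higher and 18.6% lower, so the members' share lay near the background. In all, 35 were higher and 46 lower, and their median difference was -0.026 on the log2 scale, the same as the -0.026 of all named genes. Of the members, 78 lie above the median level of all probe sets. Named genes above that level had a median of 0.005, with 48.9% lower. The 78 members had a median of -0.027, with 57.7% lower. Without overlap, 17.8% of those named genes were higher and 15.0% lower, against 11 and 16 of the 78 members. These shares were not tested.

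By complex, the median difference (knockout minus wild type, log2) was -0.045 for complex I, with 13 genes higher and 22 lower. It was -0.135 for complex II, with 2 higher and 2 lower, and -0.092 for complex III, with 4 higher and 4 lower. Complex IV had 11 higher and 6 lower, with a median of 0.11, and complex V 5 higher and 12 lower, with a median of -0.10. These medians are small beside the median SE of a member, 0.22, and beside the members' own spread, with quartiles of -0.27 and 0.17. Complexes I, II and III changed the sign of their median without knockout replicate 2, to 0.064, 0.26 and 0.22, whereas complex IV stayed above 0 and complex V below 0 with any single array left out. Without knockout replicate 2, complex I had 20 genes higher and 15 lower, complex IV 12 and 5, and complex V 7 and 10. Without wild-type replicate 1, complex V had 8 higher and 9 lower, and with each gene's probe sets averaged its median was -0.026. Over all members, leaving out knockout replicate 2 gave 47 higher and 34 lower, with a median of 0.060.

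**Figure D1:**
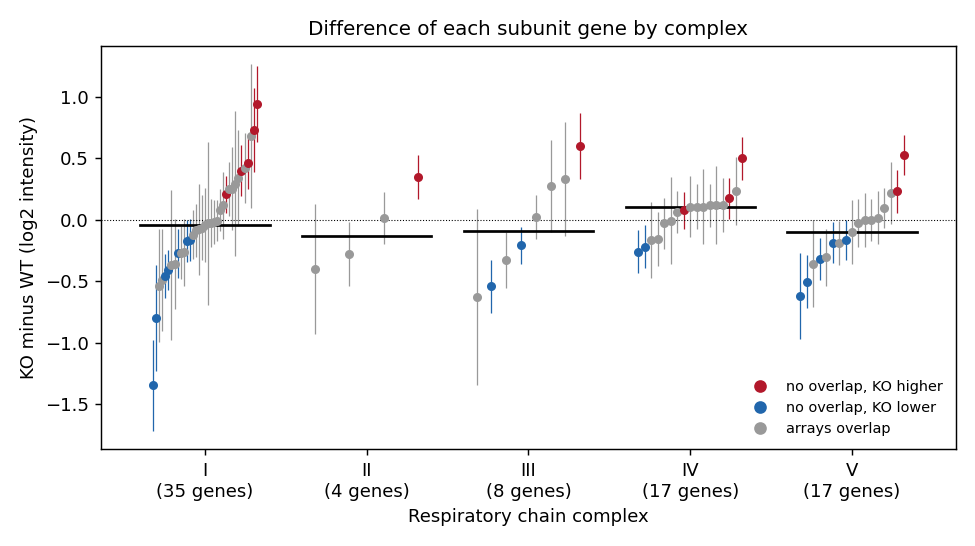
Difference between knockout and wild type (log2 intensity, vertical axis) of the 81 subunit genes by complex (horizontal axis). Points are genes in order of their difference, bars are the moderated SE (n = 2 per group), black lines are medians, and colour marks genes whose knockout and wild-type arrays did not overlap; each complex holds genes on both sides of 0, from -1.35 for Ndufs4 to 0.94 for Ndufs1.

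The promoters of these genes are shown for the DNA elements that are known for respiratory chain genes. Nuclear respiratory factor 1 (NRF1), ETS-family factors such as GABP, and YY1 are the textbook regulators, while GC boxes and CACCC boxes are elements of the kind that Kruppel-like factors bind. RefSeq windows of GRCm38.p6, from 250 bases before to 50 after each annotated start, were found for 66 of the 81 members, in 71 windows. The NRF1 core, written here as GCGCA, then any base, then GCGC, and searched like the others on both strands, was in 17 of the 71 member windows (23.9%), against 4.60% of 32851 windows of all genes. The YY1 core AAGATGGC was in 14.1% against 2.75%, and the ETS core CCGGAAGT in 7.04% against 3.89%. The GC box GGGCGG was in 39.4% against 35.7%, and the CACCC box CCACCC in 32.4% against 31.5%. Member windows were also richer in CpG, with a median of 19 CpG sites against 7, and matches of different motifs may overlap. A match is a description of letters and not a binding site.

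The NRF1 core was in 7 of 33 windows of complex I, 2 of 3 of complex II, 1 of 5 of complex III, 1 of 12 of complex IV and 6 of 18 of complex V. The YY1 core was in 7 windows of complex I and 3 of complex V. To show how the elements lie, the 250 bases before the start are printed for 1 gene of each complex, chosen because the NRF1 or ETS core lies in them. They are written 5′ to 3′ with every match to the 5 motifs in capitals:
Ndufa8 (chr2:36049339-36049588, minus strand): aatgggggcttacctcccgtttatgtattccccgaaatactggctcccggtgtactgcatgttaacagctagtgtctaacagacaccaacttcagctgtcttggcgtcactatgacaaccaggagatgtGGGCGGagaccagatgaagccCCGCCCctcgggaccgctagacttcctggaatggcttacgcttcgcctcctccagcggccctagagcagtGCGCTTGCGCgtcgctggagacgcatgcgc
Sdha (chr13:74350241-74350490, minus strand): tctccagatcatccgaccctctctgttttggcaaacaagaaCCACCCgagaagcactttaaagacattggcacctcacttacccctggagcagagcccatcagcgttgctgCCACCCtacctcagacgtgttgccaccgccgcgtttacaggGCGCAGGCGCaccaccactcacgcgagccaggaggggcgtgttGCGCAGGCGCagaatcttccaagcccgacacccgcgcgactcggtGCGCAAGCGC
Uqcr11 (chr10:80406822-80407071, minus strand): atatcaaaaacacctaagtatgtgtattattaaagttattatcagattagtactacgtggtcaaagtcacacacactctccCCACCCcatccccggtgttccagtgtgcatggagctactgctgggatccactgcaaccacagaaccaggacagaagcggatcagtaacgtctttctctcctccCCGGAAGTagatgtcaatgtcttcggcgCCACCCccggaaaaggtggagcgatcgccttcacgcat
Cox6a1 (chr5:115348959-115349208, minus strand): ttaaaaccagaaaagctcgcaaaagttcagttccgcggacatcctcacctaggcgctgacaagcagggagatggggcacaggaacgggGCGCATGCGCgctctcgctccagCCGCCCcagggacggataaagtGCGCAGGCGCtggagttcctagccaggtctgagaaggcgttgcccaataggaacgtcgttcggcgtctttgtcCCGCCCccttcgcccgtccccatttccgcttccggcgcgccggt
Atp5h (chr11:115419920-115420169, minus strand): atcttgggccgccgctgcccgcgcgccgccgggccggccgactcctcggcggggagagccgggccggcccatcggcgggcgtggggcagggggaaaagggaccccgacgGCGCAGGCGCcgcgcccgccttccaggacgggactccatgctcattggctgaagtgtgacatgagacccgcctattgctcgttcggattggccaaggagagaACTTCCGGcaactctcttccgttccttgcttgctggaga

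The Sdha stretch held 3 NRF1 cores and 2 CACCC boxes, that of Cox6a1 2 NRF1 cores and 2 GC boxes, and that of Ndufa8 1 NRF1 core and 2 GC boxes. The Uqcr11 stretch held 1 ETS core and 2 CACCC boxes, and that of Atp5h 1 NRF1 core and 1 ETS core. Each of the printed genes read lower in knockout, and they do not stand for the direction of all members with a motif. Uqcrc1, which is not printed, has the NRF1 core in its window and read higher, by 0.60 ± 0.27. Of 16 members with the NRF1 core in a window, 5 read higher and 11 lower in knockout, against 23 and 27 of the 50 matched members without it. The split was 2 higher and 8 lower with the YY1 core, against 26 and 30 without it. With the ETS core it was 0 and 5, against 28 and 33 without it. Those 5 include Cox8a, whose difference was under its own SE. With the GC box it was 10 and 17, against 18 and 21, and with the CACCC box 10 and 11, against 18 and 27. These counts carry no test, and no member passed the limma test.

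Complex I has a matrix arm, where NADH is oxidised and electrons run along iron-sulfur clusters to ubiquinone, and a membrane arm that pumps protons. Of its core matrix arm subunits 6 were measured, and they divided into 3 higher and 3 lower in knockout. Ndufs1, the largest iron-sulfur subunit, read 7.34 and 8.04 in knockout against 6.97 and 6.53 in wild type. Both knockout values lay above both wild-type values, and the difference of 0.94 ± 0.31 (95% confidence interval 0.12 to 1.76; SE, n = 2 per group) had a limma adjusted p of 0.945. It is the largest positive difference among the 81 genes. Ndufs8, which holds iron-sulfur clusters on the way to ubiquinone, read 7.52 and 6.71 in knockout against 6.15 and 6.62 in wild type. The groups did not overlap, but knockout replicate 2 lay just above the higher wild-type array, and without knockout replicate 1 the difference of 0.73 ± 0.34 stood at 0.33. Ndufs3, a core subunit near the ubiquinone site, was lower without overlap, at 8.17 and 8.30 against 8.72 and 8.57, a difference of -0.41 ± 0.16. Its second probe set gave -0.46. The remaining core values were 0.42 ± 0.29 for Ndufs7, -0.12 ± 0.20 for Ndufv1, which binds NADH, and -0.27 ± 0.22 for Ndufv2, with overlapping arrays in each. Ndufv1 turned to 0.046 without knockout replicate 2.

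Of 9 accessory subunits of the matrix arm, 7 were lower and 2 higher in knockout, and the median difference was -0.27. Ndufs4, which holds the NADH-oxidising module in place and whose loss causes Leigh syndrome, had the largest difference of any member. It read 8.83 and 7.82 in knockout against 9.80 and 9.55 in wild type. Both knockout arrays lay below both wild-type arrays, although they stood 1.00 apart from each other. Knockout stood at -1.35 ± 0.37 relative to wild type (95% confidence interval -2.32 to -0.37; SE, n = 2 per group), and the limma adjusted p was 0.945. The value was -0.85 without knockout replicate 2 and -1.85 without knockout replicate 1, and no other member of the 81 had a difference of 2-fold or more. Ndufa5, an accessory subunit beside the ubiquinone module, read 8.16 and 6.94 in knockout against 8.38 and 8.32 in wild type. The groups did not overlap, but knockout replicate 2 alone stood far below the rest, and the difference of -0.80 ± 0.43 became -0.19 without it. Ndufv3 was higher without overlap, at 7.93 and 7.86 against 7.69 and 7.69. Ndufa2, Ndufa6, Ndufa7, Ndufa9, Ndufa12 and Ndufs6 overlapped between the groups. Without knockout replicate 2 the accessory matrix arm genes were 5 higher and 4 lower, with a median of 0.11.

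The 18 membrane arm subunits, which are all accessory proteins around the mitochondrially encoded pump, comprised 7 higher and 11 lower, with a median of -0.023. Without overlap were Ndufb9 and Ndufa1 on the higher side and Ndufa8, Ndufa13, Ndufb8 and Ndufb11 on the lower. Ndufa8, a cysteine-rich subunit facing the intermembrane space, read 7.11 and 6.80 in knockout against 7.41 and 7.42 in wild type. The wild-type arrays differed by 0.007 and the difference was -0.46 ± 0.18 (SE, n = 2 per group). Ndufb9, a protein of the LYR family, read 8.81 and 8.60 in knockout against 8.45 and 8.03 in wild type, and its difference was 0.46 ± 0.21. The largest gaps in this arm lay between arrays of 1 genotype. Ndufb2 read 5.20 in wild-type replicate 2 and 6.51 to 6.92 on the others, and Ndufs5 read 5.51 there and 6.49 to 7.21 on the others. Their differences of 0.68 ± 0.59 and 0.29 ± 0.59 turned to -0.16 and -0.56 without that array. Ndufa3, Ndufa10, Ndufa11, Ndufb3, Ndufb5, Ndufb6, Ndufb7, Ndufb10, Ndufc1 and Ndufc2 overlapped. Ndufa4, counted with complex I by its symbol and placed in complex IV in later work, read between 10.36 and 10.60 on the 4 arrays, and its relative Ndufa4l2 between 5.14 and 5.58.

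**Figure D2:**
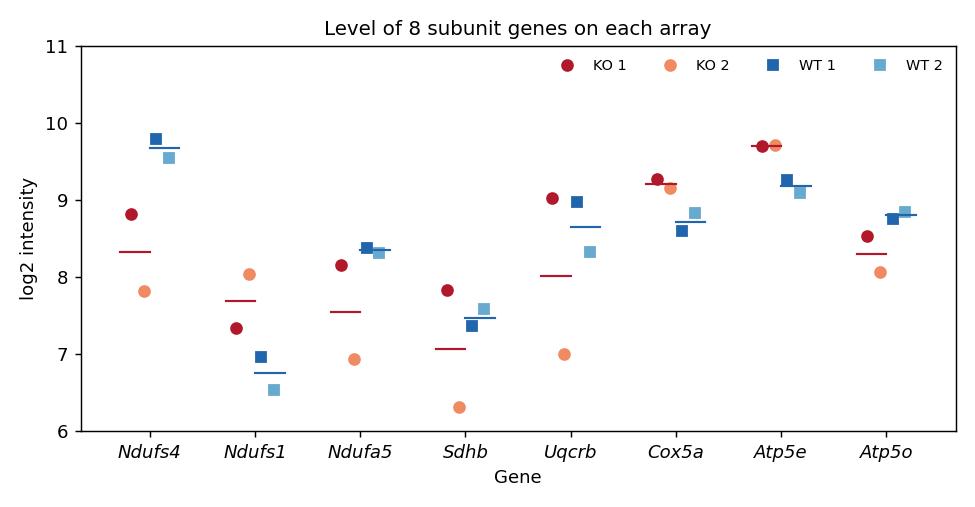
Level (log2 intensity, vertical axis) of 8 subunit genes on each array; circles are knockout arrays, squares wild-type arrays, and short lines the group means. The knockout pair lay close together for Cox5a and Atp5e and far apart for Uqcrb, Sdhb and Ndufa5, where knockout replicate 2 was lowest.

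Complex II is succinate dehydrogenase, the enzyme shared by the respiratory chain and the tricarboxylic acid cycle. Its catalytic subunits were lower and its membrane anchors higher in knockout, and each pair was split, 1 higher and 1 lower, with some single array left out. Of the 4 genes 1 was free of overlap (25%, against 33.2% of all named genes). Sdha, the flavoprotein, read 9.08 and 8.63 in knockout against 9.36 and 8.90 in wild type, a difference of -0.28 ± 0.26. Sdhb, the iron-sulfur subunit, read 7.83 and 6.31 in knockout against 7.36 and 7.58 in wild type. Its knockout arrays enclosed the wild-type arrays, and the difference of -0.40 ± 0.53 turned to 0.36 without knockout replicate 2. Sdhc, an anchor that helps to form the ubiquinone site, read 8.55 and 8.26 in knockout against 8.09 and 8.01 in wild type. Its difference was 0.35 ± 0.18 (SE, n = 2 per group) with a limma adjusted p of 0.949. Sdhd, the other anchor, stood at 0.011 ± 0.21 and changed sign with repeated quantile normalization, with cyclic loess and with single arrays left out.

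Complex III passes electrons from ubiquinol to cytochrome c. Uqcrc1 and Uqcrc2, the core proteins, and Uqcrfs1, the Rieske iron-sulfur protein, were 3 of 3 higher in knockout, at 0.60 ± 0.27, 0.33 ± 0.46 and 0.025 ± 0.18. Uqcrc1 read 7.36 and 6.85 in knockout against 6.73 and 6.28 in wild type and was alone among these in having no overlap. Uqcrc2 read 9.31 in knockout replicate 1 against 8.01 to 8.48 on the other arrays, and it turned to -0.33 without that array. Uqcrfs1 turned to -0.11 without it. Of the 5 small subunits, 4 were lower and 1, Uqcrq, was higher, with a median of -0.33. Without knockout replicate 2 these were 2 higher and 3 lower, with a median of -0.10, and without knockout replicate 1 the core proteins were 1 higher and 2 lower. Uqcr10 read 7.68 and 7.27 in knockout against 8.14 and 7.89 in wild type, a difference of -0.54 ± 0.22. Uqcr11 read 7.79 and 7.78 in knockout against 7.99 and 7.99 in wild type, so that the arrays of each group lay within 0.006 of each other and the difference was -0.21 ± 0.15. Both lay lower without overlap, with limma adjusted p of 0.945 and 0.953. Uqcrb, which takes part in binding ubiquinone, read 9.03 and 7.01 in knockout against 8.98 and 8.32 in wild type. Its difference of -0.63 ± 0.72 rested on knockout replicate 2 and turned to 0.38 without it. Uqcrh, the hinge protein, stood at -0.33 ± 0.23.

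Complex IV, cytochrome c oxidase, has nuclear subunits around a mitochondrially encoded core, and several of them exist as tissue isoforms. Of 9 widely expressed subunits, 5 were higher and 4 lower, with a median of 0.075. Without knockout replicate 1 these were 3 higher and 6 lower, with a median of -0.094, without knockout replicate 2 they were 7 and 2, at 0.19, and without wild-type replicate 2 they were 4 and 5, at -0.008. Cox5a read 9.27 and 9.15 in knockout against 8.59 and 8.83 in wild type. Both knockout arrays lay above both wild-type arrays, and the difference was 0.50 ± 0.17 (95% confidence interval 0.043 to 0.96; SE, n = 2 per group). The limma adjusted p was 0.945, and the difference ran from 0.38 to 0.62 with single arrays left out. Cox6a1 was lower without overlap, at 9.98 and 10.25 against 10.38 and 10.38, a difference of -0.26 ± 0.17. Cox7b was higher without overlap by 0.075 ± 0.15, which is under its own SE. Cox4i1, the subunit that regulates the enzyme by nucleotide binding, stood at -0.031 ± 0.21 and Cox5b at 0.11 ± 0.31, and each changed sign with an array left out. Cox6b1, Cox6c, Cox7a2 and Cox8a overlapped, as did Cox7a2l, a factor of respiratory supercomplexes.

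Of the isoforms of complex IV known from other tissues, 5 of 7 read above the median of 5.71 over all probe sets. Cox7b2, a testis isoform, read 3.42 to 3.89, near the 3.15 that 5% of all probe sets fail to reach. Cox8b, an isoform of heart and skeletal muscle, read 5.04 to 5.32, and these were the isoforms below that median. Cox7a1, also of muscle, read 5.86 to 6.10, and the testis isoform Cox8c 5.69 to 6.00. Cox6a2 of muscle read 6.64 to 7.13 and Cox6b2 of testis 6.81 to 7.54. Detection calls were not used here, so whether these values lie above background was not tested. Cox4i2, known as an isoform of low oxygen and of lung, read 5.99 and 6.01 in knockout against 6.08 and 6.36 in wild type, which gave -0.22 ± 0.18. The differences of the other isoforms lay between -0.16 for Cox6a2 and 0.23 for Cox6b2, with Cox7a1 at 0.061, Cox7b2 at 0.12, Cox8b at 0.17 and Cox8c at 0.12. Of the 7 isoforms, 5 were higher in knockout, and 3 without wild-type replicate 1. Muscle marker genes had summed intensities of Myh6, Ckm, Acta1 and Myl1 between 210.9 and 239.8 on the 4 arrays.

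Complex V is described by part of the enzyme. Of the 5 subunits of F1, the catalytic head together with its central stalk, 4 were higher and 1 lower in knockout, with a median of 0.095. That median ran from 0.013 without knockout replicate 1 to 0.19 without wild-type replicate 1, with 3 to 5 of the 5 higher over the arrays left out. Of the 9 subunits of the peripheral stalk and of the small membrane proteins, all 9 were lower, with a median of -0.19. Without knockout replicate 2 these were 7 of 9 lower, and 7 or 8 of 9 with each other array left out. The grouping by part was made after the values had been seen, so it is a description only. Atp5e, the epsilon subunit of the F1 stalk, read 9.70 and 9.71 in knockout against 9.26 and 9.10 in wild type. The knockout arrays differed by 0.013, and the group difference of 0.53 ± 0.16 (95% confidence interval 0.105 to 0.95; SE, n = 2 per group) had a limma adjusted p of 0.945 and stayed between 0.44 and 0.61 with single arrays left out. Atp5d, the delta subunit beside it, was higher without overlap by 0.23 ± 0.18. Atp5a1 and Atp5b, the subunits that form the catalytic sites, stood at -0.026 ± 0.19 and 0.014 ± 0.22, and Atp5c1, the rotor shaft, at 0.095 ± 0.16. The larger differences of F1 thus lay in its central stalk and not in the catalytic subunits.

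In the peripheral stalk, which holds the F1 head still, Atp5o read 8.53 and 8.06 in knockout against 8.76 and 8.85 in wild type, a difference of -0.50 ± 0.22 without overlap. Atp5pb stood at -0.17 ± 0.16 without overlap, while its other probe set gave 0.16. Atp5h and Atp5j overlapped. Among the small membrane subunits, Atp5j2 read 10.12 and 9.78 in knockout against 10.12 and 11.02 in wild type. Wild-type replicate 2 alone stood high, and the difference of -0.62 ± 0.35 was -0.18 without it. Atp5l read 9.46 and 9.60 in knockout against 9.76 and 9.95 in wild type, a difference of -0.32 ± 0.17, and its 6 probe sets gave -0.41 to -0.32. Atp5md and Atp5mpl both stood at -0.003 and Atp5k overlapped, so the count of 9 lower includes values that are 0 within their error. Subunit c, the ring that turns in the membrane, is 1 protein encoded by 3 genes. Atp5g1 stood at -0.31 ± 0.23, Atp5g2 at -0.19 ± 0.17 and Atp5g3 at 0.22 ± 0.25, and of these Atp5g2 alone had no overlap.

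The knockout arrays stood apart from each other over the members. The median size of the gap between them was 0.30 on the log2 scale, against 0.21 for all named genes and 0.25 for those above the median level, to which 78 of the 81 members belong. Between the wild-type arrays it was 0.275 against 0.23 and 0.26, and mitochondrial ribosomal protein genes had a larger gap between the knockout arrays, 0.37. Knockout replicate 1 lay above knockout replicate 2 for 52 of the 81 genes (64.2%), against 44.1% of all named genes and 50.6% of those above the median level. The gap reached 1.00 or more on the log2 scale for 8 members (9.88%), all with knockout replicate 2 the lower, against 2.40% of all named genes in that direction and 3.95% of those above the median level. The share was larger for mitochondrial ribosomal protein genes (12.99%) and for assembly factors of the complexes (13.95%). It was 1.41% for cytosolic ribosomal protein genes. No member had such a gap the other way, where all named genes had 1.12%. The 8 were Ndufs4, Ndufa5, Ndufa3, Ndufb10 and Ndufb6 of complex I, Sdhb of complex II and Uqcrc2 and Uqcrb of complex III. Between the wild-type arrays 4 members (4.94%) were as far apart in either direction, against 4.56% of all named genes and 7.19% of those above the median level. These shares carry no test.

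Uqcrb had the widest gap, 2.02 between the knockout arrays, and its 3 probe sets all gave lower values in knockout, from -0.71 to -0.61. Ndufb6 read 9.57 and 7.86 in knockout against 9.37 and 8.79 in wild type. Ndufb10 read 8.94 and 7.31 in knockout against 7.62 and 8.70 in wild type, so that both groups were spread by more than 1.00. Ndufa3 read 8.45 and 7.14 in knockout against 8.36 and 8.31 in wild type. These genes differed by -0.37 ± 0.61, -0.031 ± 0.66 and -0.54 ± 0.46, and each turned positive without knockout replicate 2, to 0.49, 0.78 and 0.12.

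The gap was uneven over the complexes. Its median was 0.25 for complex I, 0.37 for complex II and 0.43 for complex III, where knockout replicate 1 was above replicate 2 in 25 of 35, 4 of 4 and 8 of 8 genes. It was -0.095 for complex IV and -0.001 for complex V, with 7 of 17 and 8 of 17 genes. Within complex IV the 9 widely expressed subunits had a median gap of 0.29, with 6 of 9 higher in knockout replicate 1. The 7 tissue isoforms had -0.22, with 0 of 7. The 9 accessory genes of the complex I matrix arm all had knockout replicate 1 above replicate 2, with a median gap of 0.88, against 0.063 for the 6 core genes of the same arm. The gap between the wild-type arrays had a median of 0.15, -0.071, 0.12, -0.006 and 0.16 in complexes I to V. Markers of other cells also differed between the knockout arrays: the summed intensity of 8 granulocyte genes was 3929 in knockout replicate 1 and 1996 in replicate 2, against 2922 and 2756 in wild type. That of 5 B cell genes was 565.3 and 190.5, against 224.1 and 201.4, with the pre-B cell gene Vpreb1 at 8.59 in knockout replicate 1 and 5.35 to 5.57 on the other arrays. Of the granulocyte genes 6 of 8 were higher in knockout replicate 1 than in replicate 2, among them S100a8 at 9.59 and 7.54 and S100a9 at 10.40 and 8.02. The granule enzyme genes Mpo, at 10.22 and 10.27, and Elane, at 5.04 and 5.41, were not, and Elane was lower in knockout than in wild type without overlap, at 6.83 and 5.75 in wild type. The sums of 5 erythroid genes (808.8 and 626.3 in knockout, 472.8 and 639.3 in wild type), 4 megakaryocyte genes (727.1 and 566.6, 695.5 and 473.3), 5 T cell genes (351.9 and 417.7, 344.5 and 407.5) and 5 monocyte genes (405.6 and 402.5, 410.2 and 461.3) were less far apart between the knockout arrays. The sum of 7 sort gate and stem cell genes was 3904 and 3842 in knockout, above 2934 and 2774 in wild type. The part of these cells in the gap and in the differences between groups was not tested.

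**Figure D3:**
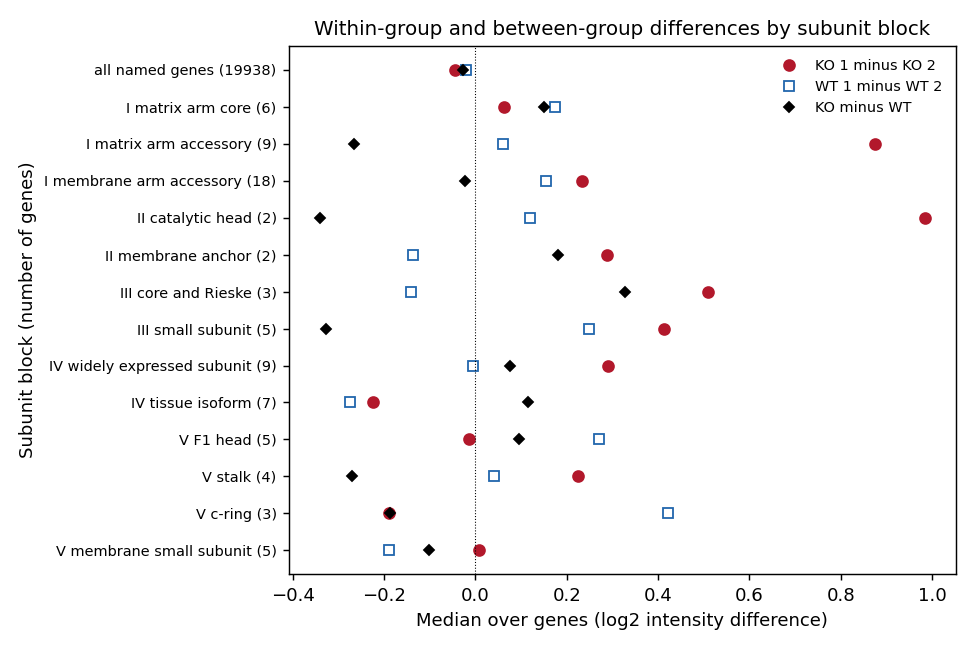
Median over the genes of each subunit block (vertical axis, number of genes in brackets) of the difference between arrays (log2 intensity, horizontal axis); circles are knockout replicate 1 minus 2, squares wild-type replicate 1 minus 2, diamonds knockout minus wild type. The knockout replicates were farthest apart in the complex I matrix arm accessory genes (0.88) and the catalytic pair of complex II (0.985). The block labelled F1 head, which holds the F1 head and its central stalk, stood at -0.013.

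**Figure D4:**
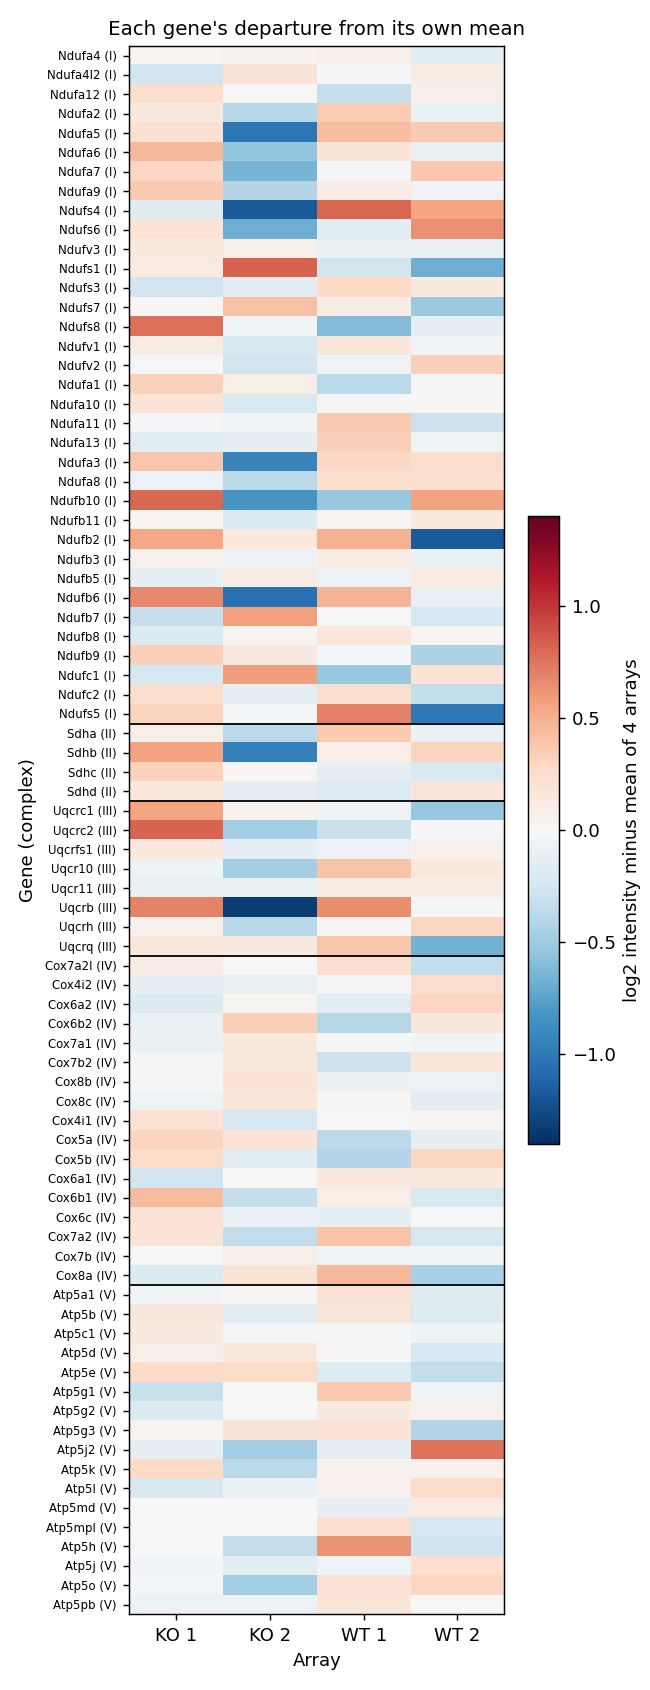
Departure of each of the 81 genes (rows, complex in brackets) from its own mean over the 4 arrays (columns), in log2 intensity; red is above and blue below the mean, and black lines part the complexes. Knockout replicate 2 was the lowest array for 31 of the 81 genes (38.3%), including 15 of complex I, 6 of complex III, 3 of complex IV and 5 of complex V. The 3 of complex IV were all among its 9 widely expressed subunits. It was the lowest for 22.2% of all named genes and 24.0% of those above the median level. For mitochondrial and cytosolic ribosomal protein genes the shares were 36.4% and 33.8%.

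Several probe sets were available for 16 members, and 13 of these gave differences of 1 direction. The exceptions were Atp5md, at -0.010 to 0.013, Atp5pb, at -0.17 to 0.16, and Ndufc1, at -0.12 to 0.34. The 3 probe sets of Atp5g2 gave -0.19 to -0.17 and those of Atp5h -0.56 to -0.31, and both of Uqcr11 were lower, at -0.62 and -0.21. Such probe sets may read copies of the same gene elsewhere in the genome, and where each maps was not checked, so they are not independent measurements. Ndufa1, Ndufb11 and Cox7b are genes of the X chromosome. Ndufa1, which is needed to build the membrane arm of complex I, read 10.02 and 9.78 in knockout against 9.32 and 9.68 in wild type, a difference of 0.40 ± 0.21. Ndufb11 stood at -0.17 ± 0.17 and Cox7b at 0.075 ± 0.15, so the 3 did not share a direction. Omitting these X-linked genes, which was decided once their values were known, left the median of complex I at -0.045 and that of complex IV at 0.11.

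Genes that build or serve the complexes were taken from lists. Of 43 measured assembly factors, 28 were higher and 15 lower in knockout, with a median of 0.069, and 6 were higher and 1 lower without overlap (16.3%, against 33.2% of all named genes). With single arrays left out, 23 to 30 of the 43 were higher, and the median ran from 0.038 to 0.195. Limma called 0, with 2 at an unadjusted p under 0.05. Sdhaf1, which helps to insert the iron-sulfur clusters of Sdhb, read 8.04 and 6.76 in knockout against 5.53 and 5.70 in wild type. Both knockout arrays lay above both wild-type arrays, unlike those of Sdhb itself, and the difference was 1.78 ± 0.45 (SE, n = 2 per group; limma adjusted p = 0.945). Ndufaf3, an early assembly factor of complex I, read 6.68 and 7.01 in knockout against 6.03 and 5.84 in wild type, a difference of 0.91 ± 0.20. Ndufab1, the acyl carrier protein that is also a complex I subunit and lies outside the symbol rule, read 9.11 and 8.74 against 7.92 and 8.43, a difference of 0.75 ± 0.25. Among 14 genes of complex III and the electron carriers outside the rule, 7 were higher and 7 lower. These were 10 and 4 without wild-type replicate 1, and 5 and 9 without wild-type replicate 2. There the ubiquinone synthesis genes Coq2 and Coq4 stood at 0.33 ± 0.17 and 0.12 ± 0.16, both without overlap. Of the synthesis genes below the median level, Coq3 was higher and Coq5 and Coq7 were lower without overlap. Cyc1, the cytochrome subunit of complex III, and Cycs, cytochrome c, overlapped between the groups. Of 13 mitochondrially encoded subunits listed, 1 was measured: ND3 read 11.72 and 11.62 in knockout against 11.33 and 11.68 in wild type, with overlap.

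Of 17 genes of the tricarboxylic acid cycle and pyruvate dehydrogenase, 11 were higher and 6 lower, with a median of 0.033. Without wild-type replicate 2 these were 7 and 10, with a median of -0.175, and without knockout replicate 1 they were 8 and 9, at -0.025. Dld, the dehydrogenase subunit shared by several of these enzymes, stood at 0.52 ± 0.22 and Idh3b, a subunit of isocitrate dehydrogenase, at 0.51 ± 0.27. The 17 regulators of mitochondrial biogenesis were 9 higher and 8 lower, and 7 and 10 without wild-type replicate 2. Polg2, the accessory subunit of the mitochondrial DNA polymerase, read 7.11 and 7.15 in knockout against 7.71 and 7.64 in wild type, a difference of -0.54 ± 0.15 that ran from -0.58 to -0.51 with single arrays left out. Its arrays did not overlap, and the limma adjusted p was 0.945. Twnk, the mitochondrial DNA helicase, stood at 0.83 ± 0.41 and at 0.25 without knockout replicate 2. Of the genes of the factors named for the promoter motifs, Nrf1 and Gabpa overlapped between the groups, while Yy1 was higher in knockout without overlap, at 8.67 and 8.72 against 8.40 and 8.44, a difference of 0.27 ± 0.15. Of 9 genes of ATP export and uncoupling, 5 were higher, and 4 without wild-type replicate 1, with the channel gene Vdac2 at 0.39 ± 0.19 and the ADP/ATP carrier gene Slc25a5 at -0.26 ± 0.15. Limma called 0 genes of these lists, and 1 regulator and 0 of the others had an unadjusted p under 0.05.

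Set beside other families of small, abundantly transcribed subunit genes, the members' median of -0.026 compared with 0.096 for 77 mitochondrial ribosomal protein genes and 0.031 for 71 cytosolic ones. The mitochondrial ribosomal genes were 48 higher and 29 lower, and the cytosolic ones 41 higher and 30 lower. Arrays did not overlap for 41.6% and 19.7% of these, against 34.6% of the members. The difference between families was not tested. Both families also read higher in knockout replicate 1 than in replicate 2, in 52 of 77 and 57 of 71 genes, with median gaps of 0.23 and 0.10 against 0.22 for the members. Without knockout replicate 1 the medians of both turned below 0, to -0.086 and -0.027, and the members' median was -0.094.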

How the data were processed

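Total RNA of sorted KLS cells was amplified with the NuGen Ovation kit, per the labels' protocols. The values the authors deposited are intensities per probe set and array; the submitters' processing notes name RMA and Affymetrix Expression Console, without versions or settings. They were read as linear, with medians of 51.01 to 52.26 per array, and log2 was taken with no further normalization. The leading 6615 probe sets stand before the first annotated one, were taken to be controls and were left out, which is an assumption, and 28939 were tested. The platform annotation of 2016 gave 21789 of these 1 symbol, 1621 several, and 5529 were unlisted. Names and chromosomes were checked in RefSeq (GRCm38.p6).

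The test of knockout against wild type was limma's moderated test (version 3.58.1 under R 4.3.3; two-sided, 2 residual degrees of freedom, Benjamini-Hochberg adjustment over all 28939 probe sets, threshold 0.05); every adjusted p comes from this fit. The fit was also run on simulated data, the outcome of which is not given here. Members and lists were chosen with earlier results of these data known. The rule for named genes took Klf7, members past the threshold, the up to 3 members per complex and direction with the largest difference among those above the median level without overlap, a fixed set of core subunits and isoforms, members whose probe sets differ in direction, and up to 2 genes of each list. Other genes named (Ndufa1, Ndufa3, Ndufb2, Ndufb6, Ndufb10, Ndufb11, Ndufs5, Uqcrb, Uqcrh, Yy1, the marker genes other than Cd34, Mecom and Elane, and those named without a difference) and the grouping by enzyme part were chosen after their values were seen. Array number limits the precision. The alternatives tried were quantile normalization, cyclic loess, median centring, an offset of 32, an intensity trend with robust estimation, leaving out dim probe sets, leaving out single arrays, a replicate block, and the mean of a gene's probe sets.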

Additional observations from a re-analysis of the deposited data

How the results depend on the processing

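The count of members called was 0 under every alternative run. The 1 probe set called over the whole table became 0 with quantile normalization again, arrays centred on their medians, an offset of 32, an intensity trend with robust estimation, the replicate block, and ran from 0 to 0 over the arrays left out, fits in which the single remaining array takes the spread of the other genotype; the cause was not tested. Equal replicate numbers are not said to mark one mouse, and deviations of same-numbered arrays correlated at 0.0434 over 28939 probe sets; the block left the differences as they were and changed no other call. The median of complex IV, 0.11, was 0.075 with probe sets above the median level only, 0.065 with quantile normalization, 0.074 with cyclic loess, 0.074 with an offset of 32 and 0.081 with Ndufa4 and Ndufa4l2 added, a setting chosen after seeing the data, and 0.036 to 0.072 with an array left out. With an array left out the median of complex II ran from -0.32 to 0.26 and that of complex III from -0.27 to 0.22. The median of complex V, -0.10, was -0.026 with each gene's probe sets averaged and ran from -0.18 to -0.056 with an array left out. Of 55 members followed, 32 kept their direction with every array left out. The others turned, with ranges over the arrays left out as follows, and the cause was not tested: Ndufv1 -0.29 to 0.046, Sdhb -1.16 to 0.36, Sdhd -0.16 to 0.19, Uqcrc2 -0.33 to 0.98, Uqcrfs1 -0.11 to 0.16, Cox4i1 -0.25 to 0.19, Cox5b -0.25 to 0.46, Atp5a1 -0.21 to 0.16, Atp5b -0.16 to 0.19, Cox6a2 -0.38 to 0.065, Cox6b2 -0.043 to 0.51, Cox7a1 -0.060 to 0.18, Cox7b2 -0.11 to 0.35, Atp5g3 -0.080 to 0.52, Atp5md -0.12 to 0.11, Ndufc1 -0.077 to 0.75, Ndufb6 -1.22 to 0.49, Ndufb10 -0.85 to 0.78, Ndufa3 -1.19 to 0.12, Ndufb2 -0.16 to 1.52, Ndufs5 -0.56 to 1.14, Uqcrb -1.64 to 0.38, Uqcrq -0.25 to 0.80. Under other scalings, Sdhd was -0.030 with quantile normalization and -0.004 with cyclic loess, Uqcrfs1 -0.019 and -0.001, Atp5b -0.014 and -0.016, and Atp5md 0.007 with arrays centred on their medians. No detection values entered the fits, so whether the dim isoforms of complex IV lay above background was not tested.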
